A study of Mus musculus with 12 samples.

Results

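Crypts of the mouse ileum were compared with crypts of the mouse jejunum in 4 poly(A) RNA-seq libraries of the 12 in the study. The 4 were chosen by their titles alone: crypt libraries from ileum, replicates 1 and 2, and crypt libraries from jejunum, replicates 1 and 2, which were paired by replicate number. Crypts and villi were freshly isolated from duodenum, jejunum and ileum, and organoids had been kept in culture for 12 weeks. There were 2 crypt libraries, 1 organoid library and 1 villus library per origin. No genotype, strain, age, sex or treatment was given for any group, and nothing in the labels says that replicates 1 and 2 came from separate animals. P-values therefore cannot be read as covering the spread between animals. In the main test they measure only the spread left between the crypt libraries once the shift shared by a replicate number is removed. Going by its title, the study asks how far small intestinal stem cells carry a programme of their own position along the gut.

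The small intestine is lined by a single layer of epithelium that is renewed from stem cells at the base of the crypts. Its absorptive cells divide the work by position: jejunum takes up most fat, sugar, amino acids and vitamin A, and ileum recovers bile acids. Position along the body axis is marked in many tissues by Hox genes, which encode homeodomain transcription factors and lie in clusters whose order follows the axis, and in the gut epithelium GATA4, a zinc finger transcription factor, is a known feature of duodenum and jejunum. Levels are given in RPKM, a read count divided by exon length and library depth. Differences and their standard errors (SE) are ileum minus jejunum on the scale of log2(RPKM + 1), which understates the change of genes with low RPKM. They were tested with limma over 6 crypt libraries with replicate number as a block, and p-values were adjusted by Benjamini-Hochberg over 11123 genes with a threshold of 0.05.

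Of the 11123 genes, 10 passed, which is 0.0899%. Higher in ileum were Hoxb9, Hoxb6, Hoxb5, Hoxb8 and Bex1 (0.045% of genes tested), and lower in ileum were Fabp1, Apoa4, Rbp2, Apoc3 and Gata4 (also 0.045%). At an unadjusted p under 0.05 there were 484 genes (4.35%), 285 higher in ileum (2.56%) and 199 lower (1.79%). In 1728 genes (15.5%) both ileal libraries lay above both jejunal ones, and in 842 (7.57%) both lay below. Without the block 3 genes passed (0.027%), Hoxb9, Hoxb6 and Hoxb8. With the 4 libraries alone and the block 175 passed (1.57%), these 10 among them. Besides those given with their groups, its calls included Mttp, Creb3l3, Ace, Cyp4v3, Reg1, H2-Ab1 and Sphk1 as lower and Mep1a, Naaladl1, Pap, Reg3g, Spdef and Dfna5h as higher. Not all of its calls are named here.

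Sequence just upstream of the start site is shown for the 3 genes lower in ileum with an entry in the RefSeq promoter table, for Fabp6, the gene with the largest value in ileum among the bile acid genes, and for Hoxb8 and Bex1, which were higher. Of 11 genes looked up, the 10 that passed and Fabp6, 6 had an entry. Each line gives the 250 bases before the start site, 5′ to 3′ on the gene's own strand, from RefSeq for build GRCm38.p6. Capitals mark 3 motifs searched on both strands. They are the TATA box motif, TATAAA, the GATA factor motif, in its forms AGATAA and, with another first letter, TGATAA, and CAAAGT, a piece of the site of HNF4 and related nuclear receptors.
Fabp1, chr6:71199629-71199878, plus strand: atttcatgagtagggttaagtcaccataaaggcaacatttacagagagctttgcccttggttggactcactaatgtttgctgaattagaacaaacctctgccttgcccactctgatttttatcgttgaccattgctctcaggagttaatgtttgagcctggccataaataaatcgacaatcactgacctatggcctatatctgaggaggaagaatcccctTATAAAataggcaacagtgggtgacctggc
Apoa4, chr9:46240594-46240843, plus strand: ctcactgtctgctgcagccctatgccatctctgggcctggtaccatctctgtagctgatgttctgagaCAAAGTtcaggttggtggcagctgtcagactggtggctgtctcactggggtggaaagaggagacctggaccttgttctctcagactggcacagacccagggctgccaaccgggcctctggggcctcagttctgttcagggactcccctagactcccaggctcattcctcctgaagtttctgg
Rbp2, chr9:98490287-98490536, plus strand: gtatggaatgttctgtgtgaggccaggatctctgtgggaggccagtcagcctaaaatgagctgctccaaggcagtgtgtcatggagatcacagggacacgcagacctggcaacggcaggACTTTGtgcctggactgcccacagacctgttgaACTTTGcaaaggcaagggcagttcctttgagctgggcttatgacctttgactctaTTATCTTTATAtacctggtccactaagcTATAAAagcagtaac
Fabp6, chr11:43601563-43601812, minus strand: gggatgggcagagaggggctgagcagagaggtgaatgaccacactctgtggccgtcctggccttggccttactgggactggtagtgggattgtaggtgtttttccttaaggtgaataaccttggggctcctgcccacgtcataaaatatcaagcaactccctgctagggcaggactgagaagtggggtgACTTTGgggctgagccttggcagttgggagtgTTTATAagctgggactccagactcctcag
Hoxb8, chr11:96281655-96281904, plus strand: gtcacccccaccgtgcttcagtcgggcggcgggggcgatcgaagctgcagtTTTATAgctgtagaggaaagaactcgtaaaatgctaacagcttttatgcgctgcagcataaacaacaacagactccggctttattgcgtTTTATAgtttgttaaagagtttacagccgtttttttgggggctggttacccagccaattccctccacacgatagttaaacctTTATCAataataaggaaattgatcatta
Bex1, chrX:136215514-136215763, minus strand: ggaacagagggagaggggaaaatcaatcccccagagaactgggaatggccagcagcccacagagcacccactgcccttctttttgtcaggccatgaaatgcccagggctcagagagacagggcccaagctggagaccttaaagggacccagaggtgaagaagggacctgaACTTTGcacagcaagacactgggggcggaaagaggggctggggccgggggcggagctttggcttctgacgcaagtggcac

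In Fabp1 the TATA motif began at position -30 from the start site, and in Fabp6 at -29. Rbp2 held the nuclear receptor motif at -131 and -98, a GATA motif at -43 that shares a base with a TATA match at -38, and a further TATA match at -15. Apoa4 held the nuclear receptor motif at -182 and neither of the others. Fabp6 held it at -61 and Bex1 at -80. Hoxb8 held TATA matches at -199 and -110 and a GATA motif at -28. Over all 32851 promoters of the same length in the table, 12.4% held the TATA motif, 16.6% a GATA motif and 12.6% the nuclear receptor motif, so each is common. A match describes the letters only.

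The implied depth was 8721535 and 9253502 reads in jejunal crypts and 8945045 and 10275855 in ileal crypts, and 1 read in a 2-kb gene was worth 0.0487 to 0.0573 RPKM. Genes of stem cells and of mature enterocytes were both detected in all 4 libraries. Lgr5, the stem cell receptor, was at 9.39 and 1.77 RPKM in jejunum and 17.2 and 2.11 in ileum, and Olfm4, a stem cell gene, at 1063 and 37.5 in jejunum and 941 and 33.4 in ileum. In each origin replicate 2 held less stem cell RNA and more enterocyte RNA than replicate 1. All 17 mature enterocyte markers were higher in replicate 2 in both origins, with a median difference of 2.35 on the log2 scale in jejunum and 2.37 in ileum, and none of 21 stem cell genes was. Transcripts of 4 Y-linked genes summed to 1.91 and 12.8 RPKM in jejunum and 1.495 and 12.5 in ileum. Lymphocyte markers summed to 3.34 to 7.17 RPKM, smooth muscle and fibroblast markers to 1.71 to 4.06, endothelial markers to 0.783 to 1.86, red blood cell markers to 0.098 to 0.681 and neural markers to 0.334 to 1.19. The pancreatic enzyme markers were at 0 in replicate 2 of both origins, and 5 of 6 were at 0 in all 4 libraries. In bulk samples fewer cells of a type and less RNA per cell cannot be told apart.

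**Figure D1:**
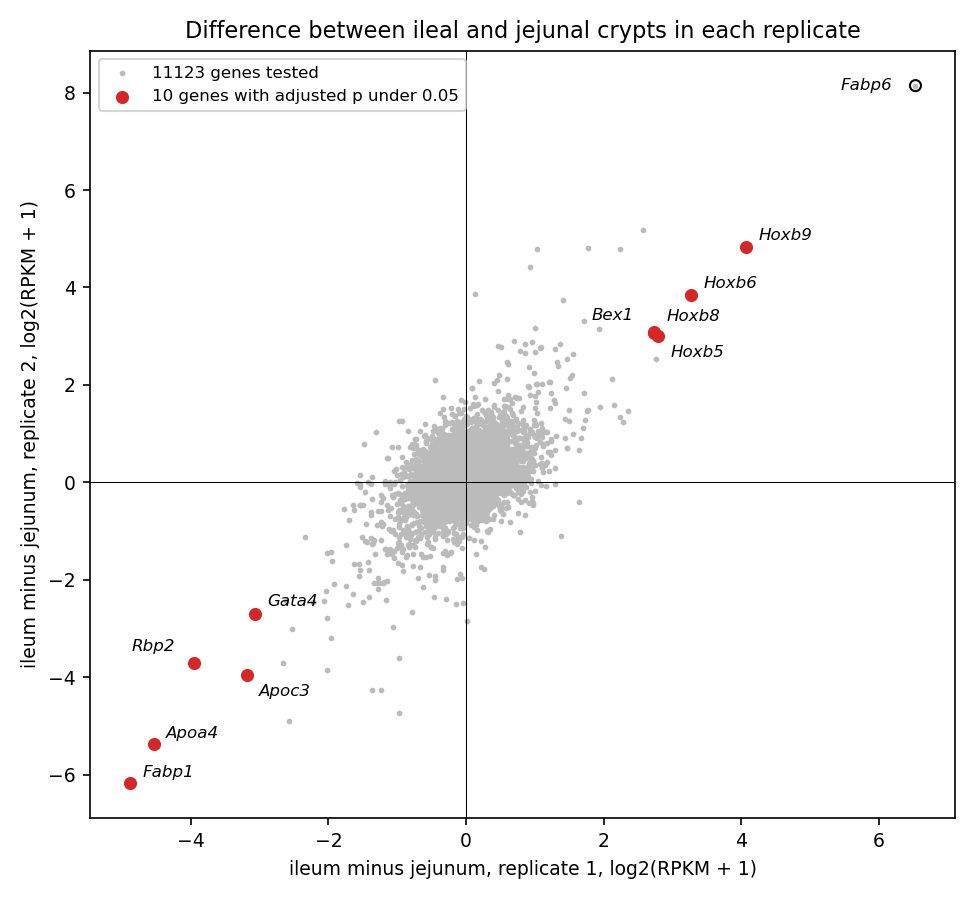
Ileum minus jejunum in replicate 1 (horizontal axis) against replicate 2 (vertical axis), both on the log2(RPKM + 1) scale, with each of 11123 tested genes as a point. The 10 genes with an adjusted p under 0.05 are in red, and all lie far from 0 on both axes. Fabp6, circled, was 7.34 higher on average and did not pass.

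The Hoxb genes were nearly silent in jejunal crypts and expressed in ileal crypts. The cluster lies on chromosome 11 (coordinates here are those of mm9 as deposited). Hoxb9 (chromosome 11, 96132643 to 96137906, plus strand) was at 0.297 and 0 RPKM in jejunum and at 20.9 and 27.6 RPKM in ileum. Its jejunal values rest on 7 reads and 0 reads. The difference was 4.46 (SE 0.30, limma adjusted p = 0.0117, and 0.0261 without the block). Both ileal libraries stand well clear of both jejunal ones, and the replicates of each origin lie close together.

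Hoxb6 (96160484 to 96162882) was at 0.954 and 0.572 RPKM in jejunum and 17.8 and 21.7 in ileum, 18.7-fold and 38.0-fold higher in the replicate pairs. Its difference was 3.56 (SE 0.30, limma adjusted p = 0.0224, and 0.0422 without the block). Hoxb8 (96143218 to 96146638) was at 0.0433 and 0 RPKM in jejunum, from 1 read and 0 reads, and at 5.92 and 7.36 in ileum. That is a difference of 2.90 (SE 0.23, limma adjusted p = 0.0209, and 0.0390 without the block). Hoxb5 (96164825 to 96167434) was at 0.363 and 0.228 RPKM in jejunum and 8.43 and 8.83 in ileum. It was 23.2-fold and 38.7-fold higher, a difference of 2.90 (SE 0.28, limma adjusted p = 0.0365), and its adjusted p without the block was 0.108. These 4 genes rose in ileum, and in none of them did the groups overlap.

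The neighbours in the cluster lay the same way without passing. Hoxb4 was at 1.65 and 0.777 RPKM in jejunum and 16.9 and 9.28 in ileum, with a difference of 2.64 (SE 0.28, limma adjusted p = 0.0511). Hoxb3 was at 0.304 and 0.159 RPKM against 3.26 and 3.13 (difference 1.77, limma adjusted p = 0.0711), and Hoxb7 at 1.08 and 0.255 against 6.96 and 10.1 (difference 2.54, limma adjusted p = 0.132). All 3 passed in the fit of the 4 libraries with the block, with limma adjusted p of 0.000476, 0.00277 and 0.00644. At the anterior end Hoxb2 reached only 0.686 and 0.836 RPKM in ileum, and Hoxb13, the most posterior member, was at 0.165 to 0.699 RPKM in the 4 libraries with no order between the origins. The wide gaps between origins ran from Hoxb3 to Hoxb9. Duodenal crypts were as low as jejunal ones in value: Hoxb9 was at 0.141 and 0.118 RPKM there and Hoxb6 at 0.431 and 0.241.

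**Figure D2:**
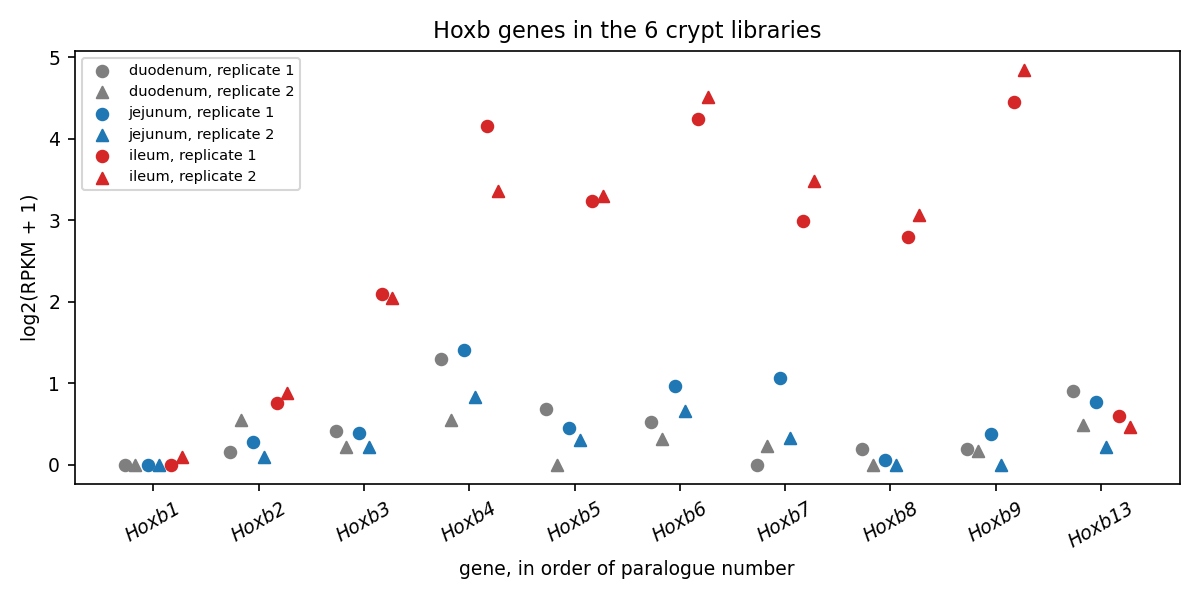
Level of each Hoxb gene, log2(RPKM + 1), in the 6 crypt libraries, with genes in order of paralogue number. Colour gives the origin, and circles and triangles are replicates 1 and 2. Ileal points stand apart from the others from Hoxb3 to Hoxb9, and the points of jejunum and duodenum stay low.

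Of all 39 Hox genes, 11 had enough reads to be tested, and all 11 were higher in ileum, with a median difference of 2.54 against 0.05 over all genes tested. Of these, 4 passed and 10 had an unadjusted p under 0.05, where the background is 2.56%. The other tested members were Hoxa3, Hoxa4 and Hoxd4, each at 1.21 RPKM or less in all 4 libraries. The remaining 28 were at 0.699 RPKM or less, and 14 of these were at 0 in all 4 libraries. A gene in this list could be tested only where it had reads, so the 11 are not a count over all Hox genes. Reads in the 2 ileal libraries alone were enough for entry, as for Hoxb8 with 1 read and 0 reads in jejunum. Members that entered this way could only be higher in ileum. The shared direction, the median and the counts by p are therefore partly set by the filter.

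Other transcription factors of gut position differed the opposite way or little. Gata4 (chromosome 14, 63817751 to 63864096, minus strand) was at 35.1 and 81.6 RPKM in jejunum and 3.29 and 11.7 in ileum, 10.7-fold and 6.99-fold lower in the pairs. It fell by 2.89 (SE 0.26, limma adjusted p = 0.0289, and 1 without the block). Both ileal libraries were below both jejunal ones. Onecut2, a CUT homeodomain factor of the upper gut, was at 5.51 and 7.45 RPKM in jejunum and at 0.125 and 0.0509 in ileum, with a difference of -2.77 (SE 0.34, limma adjusted p = 0.0904). It was 44.0-fold and 146-fold lower in the pairs and did not pass on this scale (with the 4 libraries and the block, limma adjusted p = 0.000476), and both ileal values rest on few reads. Pdx1, Onecut1 and Osr1, other factors of the upper gut, were at 0 in all 4 libraries.

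Some factors that all small intestinal epithelium needs were close in level. Cdx2, the caudal homeodomain factor that sets intestinal identity, was at 96.6 and 89.1 RPKM in jejunum and 76.4 and 145 in ileum (difference 0.18, SE 0.34), so the groups overlap. Gata6, a relative of Gata4, was at 12.6 and 17.3 against 17.3 and 15.4 RPKM. Of 20 tested factors of this wider list none passed. At an unadjusted p under 0.05, 3 were higher in ileum (background 2.56%) and 1 was lower (background 1.79%). Lower in ileum at an unadjusted p under 0.05 was Creb3l3, a membrane-bound factor that drives apolipoprotein genes. It was at 17.5 and 159 RPKM in jejunum and 2.01 and 28.6 in ileum, with a difference of -2.53 (SE 0.32, limma adjusted p = 0.0910). Cdx1, a relative of Cdx2 and among the higher ones at that p, was at 82.1 and 78.0 RPKM in jejunum and 124 and 199 in ileum (difference 0.96, SE 0.34, limma adjusted p = 0.968). Osr2, a zinc finger factor, was at 43.1 and 58.5 RPKM in jejunum and 58.4 and 135 in ileum.

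Of the 5 genes that fell, 4 serve the handling of fat and vitamin A. Fabp1 encodes a fatty acid binding protein of the enterocyte cytoplasm (chromosome 6, 71149881 to 71155016, plus strand). It was at 75.7 and 1467 RPKM in jejunal and at 1.59 and 19.4 RPKM in ileal crypts. Within the replicate pairs it was 47.6-fold and 75.7-fold lower, and it fell by 5.53 (SE 0.36, limma adjusted p = 0.0117). The ileal value of replicate 1 rests on 7 reads, so the first of these folds is imprecise. Apoa4, an apolipoprotein of chylomicrons (chromosome 9, 46048926 to 46051540, plus strand), was at 163 and 2783 RPKM in jejunum and 6.04 and 66.3 in ileum. It was 26.9-fold and 42.0-fold lower in the pairs and fell by 4.95 (SE 0.30, limma adjusted p = 0.0117). In both genes each jejunal library lay above both ileal ones, and replicate 2 lay more than 10-fold above replicate 1 within each origin.

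Apoc3, an apolipoprotein that slows the clearance of triglyceride-rich particles, is a neighbour of Apoa4 on chromosome 9 (46041133 to 46043379, minus strand). It was at 91.7 and 1661 RPKM in jejunum and 9.17 and 106 in ileum, and fell by 3.57 (SE 0.34, limma adjusted p = 0.0360). Rbp2 binds retinol inside enterocytes (chromosome 9, 98390971 to 98410153, plus strand). It was at 205 and 3520 RPKM in jejunum and 12.3 and 267 in ileum, and fell by 3.84 (SE 0.27, limma adjusted p = 0.0118). In Apoc3 and Rbp2 ileal replicate 2 lay above jejunal replicate 1, so the groups overlap as raw levels and separate only within replicate numbers. Without the block the adjusted p of Fabp1, Apoa4, Apoc3 and Rbp2 was 1 each. Within replicate 1, which held less enterocyte RNA, they were 9.99-fold to 47.6-fold lower, and within replicate 2 13.2-fold to 75.7-fold lower.

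Most of the rest of the fat genes differed less. Among 12 tested apolipoprotein and chylomicron genes 11 were lower in ileum, with a median of -0.65, and 7 had an unadjusted p under 0.05 in that direction (background 1.79%), of which Apoa4 and Apoc3 passed. Apoc2 was at 87.0 and 1052 RPKM in jejunum and 43.8 and 38.9 in ileum (difference -2.85, SE 0.84, limma adjusted p = 0.760). It was 1.99-fold lower in replicate 1 and 27.1-fold lower in replicate 2. Apoa1, the main protein of high density lipoprotein, was at 959 and 12239 RPKM in jejunum and 519 and 7249 in ileum (difference -0.82, SE 0.34). Apob, the structural protein of chylomicrons, was at 6.94 and 37.1 against 4.42 and 20.0 RPKM. Mttp, which loads lipid onto Apob, was at 24.1 and 83.9 against 6.49 and 34.1 (difference -1.51, SE 0.32, limma adjusted p = 0.472). Among 16 fatty acid and triglyceride genes 13 were lower, with a median of -0.47, and Fabp1 alone passed. Fabp2, the other abundant fatty acid binding protein, was at 512 and 6016 RPKM in jejunum and 282 and 3215 in ileum. Its difference was -0.88 (SE 0.30, limma adjusted p = 0.968), far smaller than that of Fabp1, although the difference between the 2 genes was not tested. Cd36, of the fatty acid list, was at 1.10 and 3.01 RPKM in jejunum and 0.111 and 0.129 in ileum (difference -1.37, SE 0.33, limma adjusted p = 0.523). Its ileal values rest on 3 and 4 reads. In the fit of the 4 libraries with the block it passed (limma adjusted p = 0.0304).

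Of 11 retinoid and alcohol dehydrogenase genes, 10 were lower in ileum (median -0.44), Rbp2 passed and 4 had an unadjusted p under 0.05, all lower (background 1.79%). Adh6a, an alcohol dehydrogenase, was at 13.8 and 87.7 RPKM in jejunum and 1.33 and 5.81 in ileum (difference -3.18, SE 0.37, limma adjusted p = 0.0711). Adh1, which oxidizes retinol and ethanol, was at 52.5 and 308 against 12.7 and 32.5 RPKM (difference -2.58, limma adjusted p = 0.132). In both genes each ileal library lay below the jejunal libraries, and both passed in the fit of the 4 libraries with the block.

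Sugar digestion lay on the same side with no gene past the threshold. Of 10 tested carbohydrate genes 9 were lower in ileum, the median was -1.06, and all 9 had an unadjusted p under 0.05 (background 1.79%). In the fit of the 4 libraries with the block Lct, Treh and Khk passed, where 1.57% of all genes did. Lct, the lactase of the brush border, was at 8.63 and 108 RPKM in jejunum and 0.616 and 2.64 in ileum, with a difference of -3.74 (SE 0.64, limma adjusted p = 0.276). Treh, which splits trehalose, was at 14.6 and 126 against 3.12 and 29.1 (difference -2.001, SE 0.27, limma adjusted p = 0.132). Slc5a1, the sodium-glucose transporter, was at 25.9 and 182 against 16.1 and 87.2 RPKM, and Slc2a2, the basolateral glucose transporter, at 1.58 and 33.1 against 0.0907 and 0.790.

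Peptide digestion was mixed. Of 19 tested genes 14 were lower and 5 higher, with a median of -0.10. Ace, a peptidase of the brush border, was at 17.6 and 147 RPKM in jejunum and 2.998 and 25.9 in ileum (difference -2.34, SE 0.26, limma adjusted p = 0.0619). Mep1a, a subunit of the metalloprotease meprin, was at 7.92 and 52.3 against 24.4 and 234 RPKM (difference 1.82, SE 0.40, limma adjusted p = 0.478), and Naaladl1, another peptidase, at 25.9 and 89.3 against 53.3 and 364. So brush border peptidases lay on both sides. Of 14 cytochrome P450 genes, which oxidize drugs and lipids, 12 were lower in ileum (median -0.90), none passed and 7 had an unadjusted p under 0.05, all lower (background 1.79%). Cyp4v3 was at 15.1 and 107 RPKM in jejunum and 5.57 and 24.7 in ileum. The 17 mature enterocyte markers, among them Treh, Slc5a1, Fabp2 and Mttp of the lists above, had a median of -0.31, with 14 lower and none past the threshold, and 6 were lower at an unadjusted p under 0.05 (background 1.79%). Their sums were 1300 and 9626 RPKM in jejunum and 865 and 7020 in ileum, and their part in the differences of the absorption genes was not tested.

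**Figure D3:**
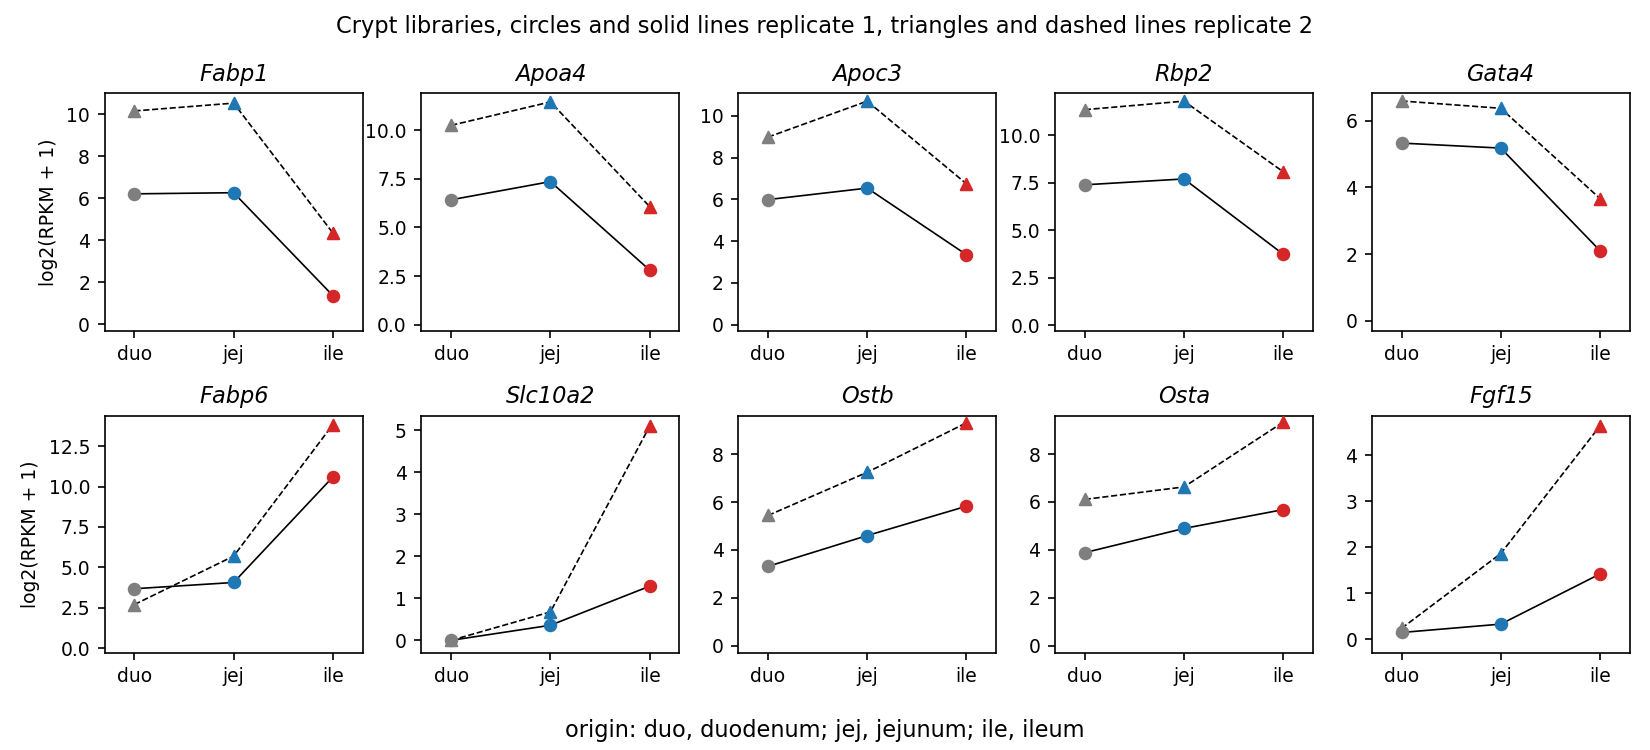
Levels of 5 genes lower in ileum (top row) and 5 bile acid genes (bottom row), log2(RPKM + 1), in duodenal, jejunal and ileal crypts. Circles with solid lines are replicate 1 and triangles with dashed lines replicate 2. In the top row each line drops from jejunum to ileum, and in the bottom row each lies higher in ileum than in jejunum, although none of those 5 passed. The 2 replicates lie far apart in most panels.

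Several bile acid genes were higher in ileum, Fabp6 by a wide margin, and none passed. The size of the gap differed between the replicates, and why none passed was not tested. In duodenal crypts, which enter the spread of the main fit, Fabp6 was at 11.8 and 5.48 RPKM. With limma-voom and the block Fabp6 passed (limma-voom adjusted p = 0.00329) and Fgf15 did not (0.280). In the fit of the 4 libraries with the block 3 passed, Fabp6 (limma adjusted p = 0.000255), Ostb (0.0304) and Fgf15 (0.0411), where 1.57% of all genes did. Fabp6, the ileal bile acid binding protein (chromosome 11, 43409613 to 43415012, minus strand), was at 15.7 and 50.8 RPKM in jejunum and 1544 and 14643 in ileum. It was 98.3-fold and 288-fold higher in the pairs, a difference of 7.34 (SE 0.87, limma adjusted p = 0.0762), and both ileal libraries lay far above both jejunal ones. Slc10a2, the sodium-dependent bile acid transporter of the brush border, was at 0.281 and 0.597 RPKM in jejunum and 1.44 and 33.1 in ileum (difference 2.67, SE 0.86, limma adjusted p = 0.871).

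Both subunits of the basolateral bile acid exporter, Osta (current symbol Slc51a) and Ostb (Slc51b), were 1.75-fold and 2.39-fold higher in replicate 1 and 6.57-fold and 4.21-fold higher in replicate 2. Fgf15, the hormone that ileal cells release in response to bile acids, was at 0.254 and 2.63 RPKM in jejunum and 1.67 and 23.9 in ileum. Nr1h4, the bile acid receptor FXR, was at 17.2 and 14.8 against 19.7 and 65.7 RPKM. In this list 6 of 10 tested genes were higher with an unadjusted p under 0.05 (background 2.56%), the median was 1.39 (0.49 in replicate 1 and 2.07 in replicate 2), and the 2 lower ones at that p (background 1.79%) were Nr0b2 and Abcc2. The replicate with the larger gap, replicate 2, was also the one with more enterocyte RNA in both origins. It held less stem cell RNA and more Y-linked RNA as well, and a link of any of these to the gap was not tested.

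Vitamin B12 uptake, another ileal task, did not separate the origins. Cubn, the receptor for intrinsic factor with B12, was at 1.02 and 14.1 RPKM in jejunum and 1.34 and 24.7 in ileum (difference 0.49, SE 0.51), and the groups overlap. Of 16 cholesterol synthesis genes 15 were higher in ileum with a median of 0.47, but the median was 0.00 in replicate 1 and 1.06 in replicate 2. None passed, and 2, Fdps and Mvk, had an unadjusted p under 0.05 (background 2.56%).

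Paneth and goblet cell genes lay on the side of ileum with none past the threshold. All 12 tested Paneth cell genes, which encode antimicrobial peptides and enzymes stored at the crypt base, were higher in ileum, with a median of 1.03, and 5 had an unadjusted p under 0.05 (background 2.56%). The median was 1.38 in replicate 1 and 0.68 in replicate 2, and 0.50 with quantile normalization. Defcr22 (current symbol Defa22), an alpha-defensin, was at 1334 and 643 RPKM in jejunum and 6834 and 1766 in ileum (difference 1.91, SE 0.33, limma adjusted p = 0.282). Defensins are near-identical in sequence, so a read may belong to a relative of the gene it was counted for, and Defcr6 and Defcr24 hold the same values. Mmp7, the protease that activates defensins, is a single gene and was at 238 and 127 against 586 and 201 RPKM. Lyz, the Paneth cell lysozyme, was at 6035 and 2969 against 11813 and 3466. Summed over the list, Paneth cell RNA was at 77874 and 47513 RPKM in jejunum and 217719 and 80001 in ileum. Replicate 1 was the higher one in both origins.

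All 11 goblet cell genes were higher as well, with a median of 0.97, and 7 had an unadjusted p under 0.05 (background 2.56%). Spdef, a transcription factor of goblet and Paneth cells, was at 15.7 and 10.5 RPKM in jejunum and 33.1 and 29.7 in ileum (difference 1.22, SE 0.27, limma adjusted p = 0.478). Tff3, a trefoil peptide of mucus, was at 1453 and 2034 against 3114 and 8213. In Spdef and Tff3 both ileal libraries lay above both jejunal ones.

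Inducible antimicrobial genes lay on both sides. Pap (current symbol Reg3b), a secreted lectin, was at 24.9 and 51.1 RPKM in jejunum and 121 and 1439 in ileum, with a difference of 3.51 (SE 0.56, limma adjusted p = 0.221). Reg3g, a lectin that kills Gram-positive bacteria, was at 110 and 203 against 270 and 1353 (difference 2.01, SE 0.38, limma adjusted p = 0.367). Dmbt1, a secreted scavenger protein, was at 128 and 186 against 53.6 and 104 RPKM, and Reg1 at 12.1 and 47.8 against 3.63 and 7.85. The median of the 10 tested members was 0.11, and -0.05 with quantile normalization.

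Gut hormones lay on both sides. Gip, which potentiates insulin release, was at 68.2 and 67.1 RPKM in jejunum and 19.6 and 14.5 in ileum (difference -1.94, SE 0.39, limma adjusted p = 0.410). Ghrl, which encodes ghrelin, was at 36.6 and 59.7 against 13.2 and 16.4, and Cck, the hormone of gall bladder contraction, at 18.6 and 35.6 against 7.65 and 13.2. Each of these has groups that do not overlap. Pyy, a peptide of the lower gut, was at 4.14 and 14.97 against 9.20 and 74.5 RPKM, and Sct, secretin, at 32.1 and 90.4 against 109 and 220. Of 19 tested enteroendocrine genes none passed, 4 had an unadjusted p under 0.05, all lower in ileum (background 1.79%), and the median was -0.22. In the fit of the 4 libraries with the block Gip, Ghrl and Cck passed as lower and Sct and Pyy as higher, where 1.57% of all genes passed.

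The stem cell and cell cycle lists gave no difference past the threshold. Of 21 stem cell genes none had an unadjusted p under 0.05 and the median was 0.13, and of 21 cell cycle genes none did and the median was 0.02. Axin2, a Wnt target, was at 21.7 and 13.1 RPKM in jejunum and 26.9 and 15.1 in ileum (difference 0.24, SE 0.26). All 7 tested MHC class II genes were lower in ileum (median -0.78), 3 with an unadjusted p under 0.05 (background 1.79%). H2-Ab1 was at 65.3 and 8.30 against 23.2 and 4.15 RPKM, and the median gap was -1.45 in replicate 1 and -0.06 in replicate 2. Macrophage markers summed to 57.8 and 34.5 RPKM in jejunum and 87.2 and 40.9 in ileum, with Lyzs the largest share, and Csf1r, which defines macrophages, was at 0.126 RPKM or less in all 4 libraries. Their part in the result was not tested.

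**Figure D4:**
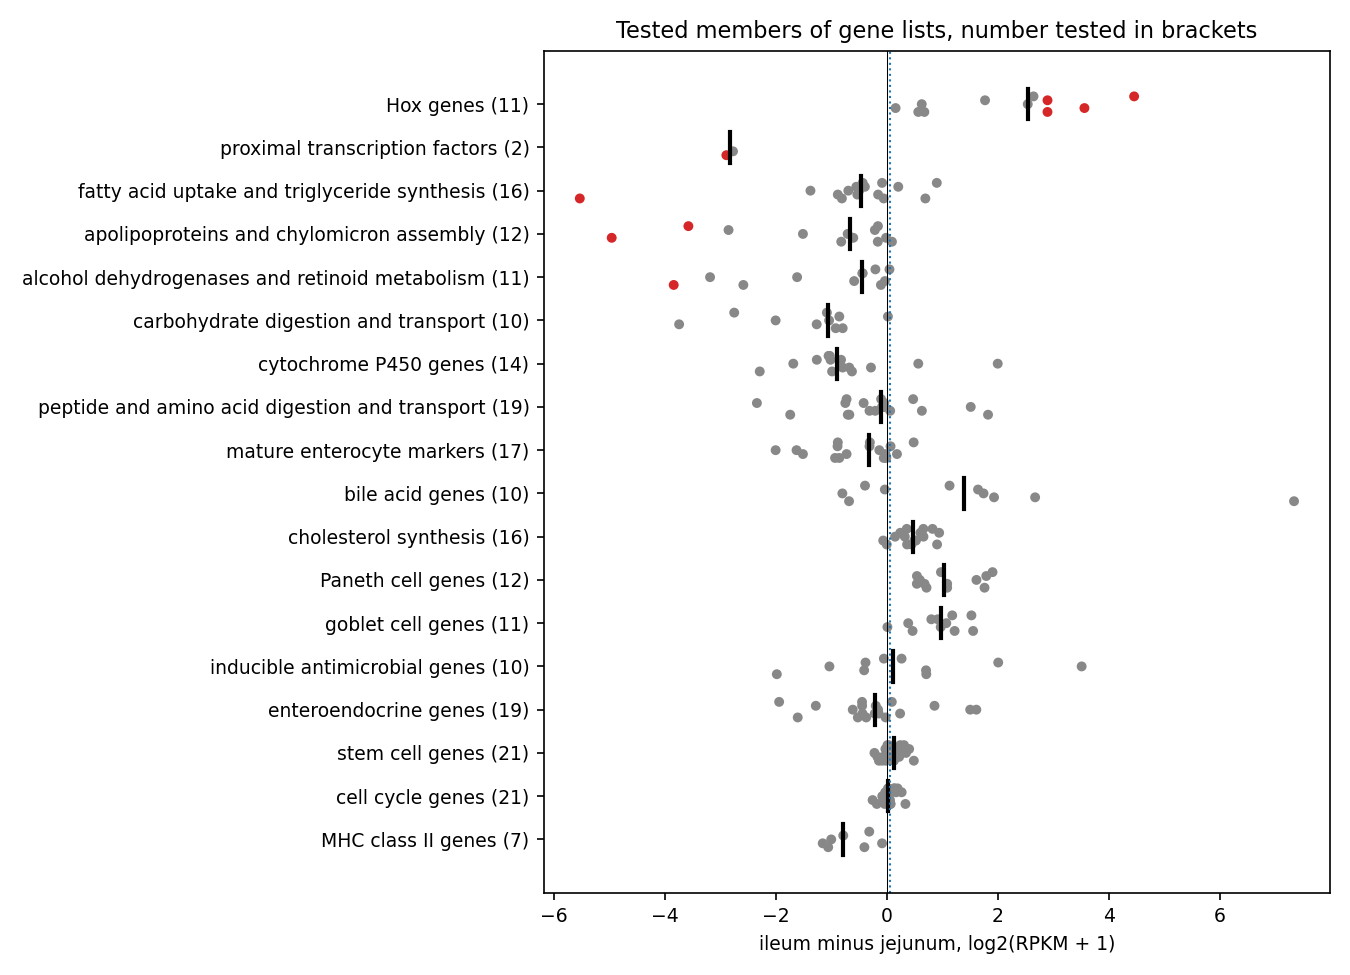
Ileum minus jejunum, log2(RPKM + 1), for each tested member of 18 gene lists, with the number tested in brackets. Red points had an adjusted p under 0.05, black bars are list medians and the dotted blue line is the median of all genes tested. Hox genes lie to the right and the absorption lists to the left, and stem cell and cell cycle genes lie around 0.

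Bex1 was the remaining gene that passed. It encodes a small adaptor protein and lies on the X chromosome (132748510 to 132750051, minus strand). It was at 7.28 and 1.62 RPKM in jejunum and 54.1 and 21.1 in ileum, 7.43-fold and 13.0-fold higher in the pairs. It rose by 2.91 (SE 0.29, limma adjusted p = 0.0438, and 1 without the block), and without ileal replicate 2 it no longer passed. The next genes by p that did not belong to a list were Dfna5h (current symbol Gsdme), a pore-forming protein, at 3.33 and 5.88 against 11.7 and 42.0 RPKM, and Sphk1, sphingosine kinase, at 12.3 and 24.6 against 2.17 and 3.72 RPKM.

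The same contrast was then read in organoids and villi, which have 1 library per origin, so their spread is borrowed from crypts. The Y-linked genes Ddx3y, Eif2s3y and Jarid1d were at 0 RPKM in the jejunal and ileal libraries of organoids and villi. All 4 crypt libraries held reads of each. These tissues thus differ from the crypts in Y-linked RNA as well, and effects of tissue and of source animal cannot be told apart. All 10 genes that passed in crypts lay in the same direction in organoids and in villi. Of the 11123 genes, 5013 were higher in ileal than jejunal organoids and 7203 in villi. How many of all genes kept the direction they had in crypts was not counted. Of the 175 genes that passed with the 4 libraries and the block, 143 kept it in organoids and 164 in villi. In organoids Hoxb9 was at 0 RPKM in the jejunal and 2.39 in the ileal library, and in villi at 0 and 4.98. Fabp1 was at 1263 and 266 RPKM in jejunal and ileal organoids and at 1449 and 137 in villi. Gata4 was at 18.2 and 7.68 RPKM in organoids and 46.2 and 19.5 in villi. Bex1 was at 1.86 and 38.7 in organoids and 0.541 and 2.67 in villi.

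Whether the origin difference of these tissues departs from that of crypts was tested as an interaction in 12740 genes over all 12 libraries. With limma none passed for organoids (245 genes, 1.92%, at an unadjusted p under 0.05) and none for villi (158 genes, 1.24%). The fit had no replicate block, so the gap between crypt replicates enters its SE. For Fabp1 the SE of the organoid interaction was 3.47, against 0.36 for its difference in crypts. A change in such genes could therefore go undetected. The Hoxb differences were smaller in value outside crypts. For Hoxb6 the organoid difference was 0.35 against 3.56 in crypts, 3.21 less (SE 0.40, limma adjusted p = 1). Its organoid levels were near the floor, at 0 RPKM in the jejunal and 0.274 in the ileal library. For Hoxb9 it was 1.76 against 4.46, 2.69 less (SE 0.42, limma adjusted p = 1). Over the 11 Hox genes the median difference was 0.47 in organoids and 0.72 in villi. These 11 entered by their reads in crypts, and Hoxb6 and Hoxb9 were picked for their difference there. That same difference enters the interaction, so smaller values outside crypts are partly set by the choice.

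Fabp6 was at 0.556 and 4.12 RPKM in jejunal and ileal organoids and at 18.4 and 24599 in villi. Its difference was 1.72 in organoids, 7.34 in crypts and 10.31 in villi (interaction with organoids -5.62, SE 2.03, limma adjusted p = 1). Among bile acid genes the median was 0.43 in organoids and 2.05 in villi, beside 1.39 in crypts. Paneth cell genes were higher in ileum in all 12 tested cases in both organoids and villi, with medians of 1.29 and 1.14. Cck lay the other way in organoids, at 358 RPKM in the jejunal and 945 in the ileal library, with an interaction of 2.67 (SE 0.90, limma adjusted p = 1).

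**Figure D5:**
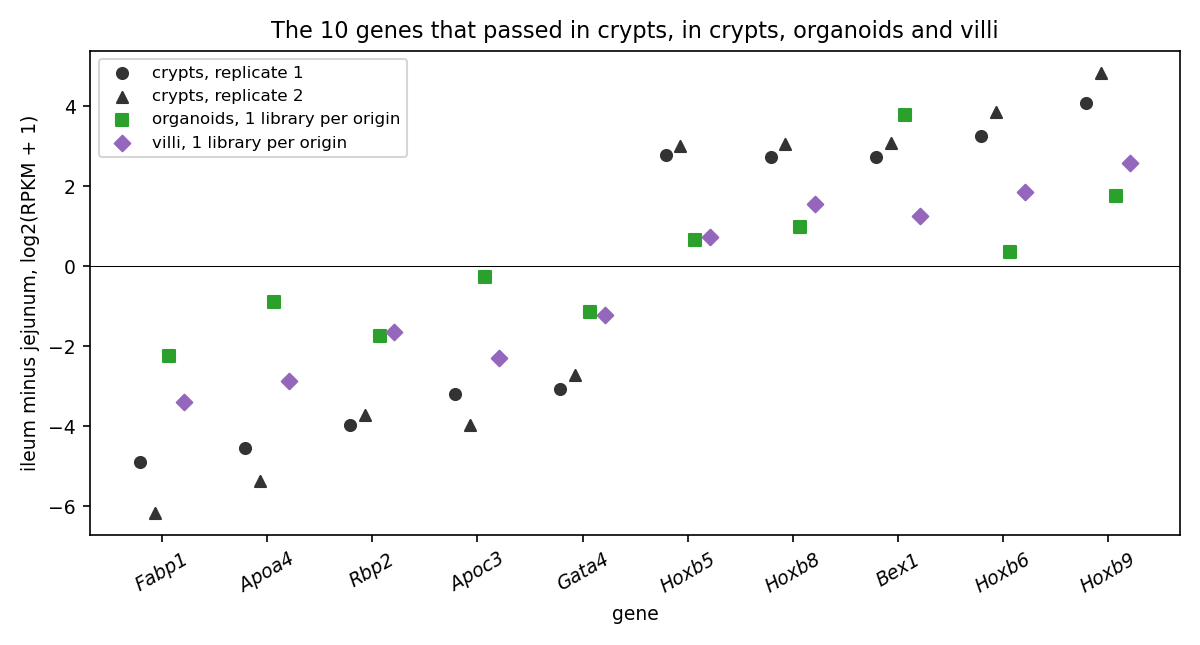
Ileum minus jejunum, log2(RPKM + 1), of the 10 genes that passed in crypts, for the 2 crypt replicates, organoids and villi. The 5 genes lower in ileum lie below 0 and the 5 higher ones above 0 in all 4 sets. Hoxb5, Hoxb6, Hoxb8 and Hoxb9 lie nearer to 0 in organoids and villi than in crypts, where they were picked for their difference.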

How the data were processed

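Poly(A) RNA of 12 libraries was read on a SOLiD 4 sequencer with reads of 50 bp, per the labels' protocols, and aligned with BWA to mm9, per the submitters' processing notes. Not given in the sources used here: versions, gene models, and the counting rule with its use of strand. Per the file headers, the authors deposited RPKM per RefSeq transcript (21247 transcripts, 19012 symbols). The longest transcript by exon length stood for each symbol. A current symbol was found for 18503 through RefSeq accessions. Reads were recovered from the RPKM steps, of which at least 99.9671% per library were whole within 0.02 of a read. A gene was tested with at least 10 reads at median depth in 2 crypt libraries and 15 reads in total.

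The test was limma 3.58.1 (R 4.3.3) (trend option) on log2(RPKM + 1), with 1 mean per origin over the 6 crypt libraries and replicate number as a block (2 residual degrees of freedom). Duodenal libraries add only to the spread and the replicate term. Equal numbers deviated together: over 11123 genes the deviations from the group means correlated at 0.79 between jejunum and ileum, 0.51 between duodenum and ileum and 0.42 between duodenum and jejunum. The pairing itself comes from the replicate numbers in the titles. Interactions used 9 means over 12 libraries (3 residual degrees of freedom). The script was checked on simulated data.

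The comparison, its markers, the 39 gene lists (512 of 524 entries matched) and the rule for named genes were chosen with earlier results of these data known. The rule names all genes past the threshold, the next 10 per direction by p with a mean of at least 5 RPKM and groups that do not overlap, the list members with the smallest p, and a set of position, transport and lineage genes. Gata6, Pdx1, Onecut1, Osr1, the Hox genes outside Hoxb3 to Hoxb9, Pyy, Sct, Mmp7, Defcr6, Defcr24, Guca2b, Cyp2c55, Nr0b2, Abcc2, Csf1r and the summed marker levels fall outside the rule and were chosen after their values were seen. Alternatives changed the block, libraries, pseudocount, filter, scaling, transcript and test. Promoter sequences are from RefSeq (GRCm38.p6). The base from which the deposited mm9 starts are counted is unknown. 1 gene of the lists is not reported here.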

Additional observations from a re-analysis of the deposited data

How the results depend on the processing

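The count of genes past the threshold depends on how the spread is estimated. It was 10 with the replicate block, 3 without it and 175 with the 4 ileal and jejunal libraries and the block, which leaves 1 residual degree of freedom. With quantile normalization it was 19, with limma-voom on the recovered reads 27 with the replicate block and 0 without it (the last chosen after seeing the data). With no filter on low reads it was 0, with 665 genes at an unadjusted p under 0.05. The cause was not tested. Pseudocounts of 0.1 and 0.5 gave 12 and 14, a mean of at least 1 RPKM 11, rescaling to reads in annotated genes 13, and the most abundant transcript 10. Bex1 and Hoxb5 did not pass at a pseudocount of 0.1, nor Hoxb5 with voom. Leaving out a library in turn gave 17 to 176 with the block: 74 and 17 without ileal replicate 1 and 2, 43 and 17 without jejunal replicate 1 and 2, and 176 and 173 without duodenal replicate 1 and 2. All 10 genes stayed among them, except Bex1 without ileal replicate 2. Without the block (chosen after seeing the data) the range was 0 to 4. With the block, leaving out 1 duodenal library means that the other adds nothing to the residual. Those runs in effect repeat the fit of the 4 libraries and are no separate check. None of the named genes reversed its direction past the threshold under any alternative. Rescaling moved the median of all genes from 0.05 to -0.05, so list medians shift by about that much. The Hox genes had a median of 2.42 and the stem cell genes 0.02 on that scale. The interactions with organoids and with villi gave 0 genes under all alternatives, the replicate block included, with 150 to 414 and 80 to 240 genes at an unadjusted p under 0.05. The planned count-model alternatives were not run, because the deposited unit is RPKM. Depth limits genes at a few reads, as the Hox genes in jejunum.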

Other observations

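Some genes outside the groups above had levels apart in the origins, with none past the threshold. Guca2a, which encodes guanylin, a peptide that regulates salt and water secretion, was at 586 and 1014 RPKM in jejunal and 1488 and 5321 RPKM in ileal crypts, 2.54-fold and 5.25-fold higher in the pairs (limma adjusted p = 0.523). Its relative Guca2b was at 362 and 2932 RPKM in jejunum and 455 and 1743 in ileum, so those groups overlap. Cyp2c55, a P450 gene, was at 3.92 and 7.33 RPKM in jejunum and at 4.38 and 121 in ileum, and replicate 2 alone carries that gap. Slc40a1, the iron exporter, was at 0.543 and 0.640 against 3.24 and 5.30 RPKM, and passed in the fit of the 4 libraries with the block.

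No gene of the fat oxidation, iron, calcium, carbonic anhydrase, vitamin B12 or immediate early lists passed or had an unadjusted p under 0.05. Of these, the largest list was that of fat oxidation with 16 tested genes and a median of -0.20. The immediate early genes, 11 tested, had a median of -0.05. Among 10 tested tuft cell genes Ptgs1 alone had an unadjusted p under 0.05 (background 2.56%), at 0.200 and 0.830 RPKM in jejunum and 1.33 and 2.005 in ileum.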
